A study of Mus musculus with 10 samples.

Results

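CD103+ and CD103- cells are the 2 populations into which the CD11b- dendritic cells of the mouse mammary gland were sorted, and their RNA was compared gene by gene. The comparison uses 4 of the 10 libraries of the series, 2 replicates of each population, and these were chosen by their sample labels alone. The count table held 27179 genes, of which 15681 passed a filter on low counts and were tested. All mice were adult virgin females of strain C57BL/6, the tissue was the mammary gland, cells were freshly sorted, and the labels name no genetic change and no treatment for any group. The other 6 libraries, 2 each from CD11b+ dendritic cells, ductal macrophages and stromal macrophages of such mice, entered the same fit and served as the outside reference. The labels call the replicates biological, and do not say whether a library came from 1 mouse or a pool.

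Conventional dendritic cells form a type 1 and a type 2 lineage. Type 1 cells (cDC1) depend on the transcription factors IRF8 and BATF3, take up dead cells through CLEC9A, and present the antigens to CD8 T cells. They also carry the chemokine receptor XCR1. CD11b (Itgam) marks type 2 cells and macrophages. CD103 is the alpha E integrin chain (Itgae), which pairs with the beta 7 chain (Itgb7) and binds E-cadherin of epithelium, and in non-lymphoid tissues it is a usual mark of cDC1. When dendritic cells mature they induce CCR7 and move through lymph to the draining node.

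Library totals were 18594628 and 22519191 counts for CD103+ cells and 11703066 and 18075324 for CD103- cells, within a range of 5636092 to 23093742 over the series. Levels are given as CPM, counts relative to a library's sum over tested genes after TMM scaling, on which 3 counts amount to 0.119, 0.119, 0.207 and 0.136 CPM in these 4 libraries. Transcripts of the mitochondrial genome took 2.83%, 2.13% and 2.22% of counts in CD103+ replicates 1 and 2 and CD103- replicate 1, and 6.29% in CD103- replicate 2. The sorting genes followed the labels. Itgae stood at 158 and 172 CPM in CD103+ cells and at 9.39 and 3.80 CPM in CD103- cells, so the CD103- libraries held some Itgae RNA. Itgam stood at 7.28 to 11.4 CPM in all 4 libraries, against 701 and 556 CPM in CD11b+ dendritic cells.

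Promoter sequences are shown for the gene that differed most between the populations, Mmp12, and for a pair that both populations expressed at high level, Xcr1 and Clec9a. Each is the 250 bases before a RefSeq start site (build GRCm38.p6), read 5′ to 3′ on the gene's strand, at chr9:7344147-7344396 (+ strand) for Mmp12, chr9:123862030-123862279 (- strand) for Xcr1 and chr6:129408612-129408861 (+ strand) for Clec9a. Capitals mark GAGGAA on either strand, the core bound by the myeloid factor PU.1.
Mmp12: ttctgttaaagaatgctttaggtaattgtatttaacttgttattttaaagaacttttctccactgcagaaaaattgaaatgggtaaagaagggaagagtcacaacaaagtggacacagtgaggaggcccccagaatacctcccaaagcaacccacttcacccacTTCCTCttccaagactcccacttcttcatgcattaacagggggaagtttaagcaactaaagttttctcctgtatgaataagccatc
Xcr1: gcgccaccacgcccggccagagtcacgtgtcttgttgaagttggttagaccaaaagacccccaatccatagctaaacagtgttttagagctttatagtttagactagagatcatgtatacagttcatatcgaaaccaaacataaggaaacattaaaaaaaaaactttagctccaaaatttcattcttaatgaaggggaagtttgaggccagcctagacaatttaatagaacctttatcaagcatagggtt
Clec9a: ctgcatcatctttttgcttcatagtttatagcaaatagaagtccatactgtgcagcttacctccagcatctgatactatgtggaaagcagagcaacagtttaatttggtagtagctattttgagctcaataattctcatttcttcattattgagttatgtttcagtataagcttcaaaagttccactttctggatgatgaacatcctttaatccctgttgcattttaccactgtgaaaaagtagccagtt
The Mmp12 window held 1 such match, on the opposite strand, and the other windows held none. Of all 32851 promoter windows of this length, 23.3% held GAGGAA. No window of the 3 held the AP-1 motif TGANTCA on either strand (6.75% of all windows), which says only that these letters do not occur there. Among the 5 genes called between the populations, 2 had a promoter in the RefSeq table.

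The 2 populations lay close to each other. The root mean square difference in log2 CPM over the tested genes was 0.752 between the CD103+ replicates, 0.868 between the CD103- replicates and 0.878 on average between a CD103+ and a CD103- library (0.764 to 1.05). Distances to CD11b+ dendritic cells averaged 1.45 for CD103+ and 1.42 for CD103- cells, and those to the macrophages lay between 1.73 and 1.93. The mean distance between the populations was thus close to that between the CD103- replicates.

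Few genes passed the test between the populations, and all were higher in CD103+ cells. At an adjusted p under 0.05 (edgeR's quasi-likelihood test, Benjamini-Hochberg adjustment over all genes), 5 genes were higher in CD103+ cells, which is 0.0319% of the tested genes, and none was lower. Besides Itgae, which the sort selected for, these were Mmp12, Mgl2, Clec4n and Ms4a6d. Without adjustment 6.38% of genes passed p under 0.05, with 675 (4.3%) higher and 325 (2.07%) lower, and DESeq2 called 119 higher and 31 lower. Both CD103+ libraries lay above both CD103- libraries for 17.4% of genes and below them for 18.3%.

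Mmp12, macrophage elastase, a secreted protease of elastin and other matrix proteins, lies at chr9:7344397-7360461 (GRCm38). It stood at 109 and 74.6 CPM in CD103+ cells and at 0.414 and 0.0452 CPM in CD103- cells, where it rested on 6 counts and 1 count. Both CD103+ libraries were at the level of CD11b+ dendritic cells (123 and 73.1 CPM), and CD103- cells had the lowest level of the 5 populations. Ductal macrophages held 2457 and 2529 CPM and stromal macrophages 13.9 and 6.58 CPM. The log2 fold change was 8.80 ± 0.70 (SE, 2 libraries against 2, adjusted p = 0.00126), with a 95% interval of 7.26 to 10.34, and its size rests on the 7 counts of the lower side.

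Mgl2, a C-type lectin (CD301b) of type 2 dendritic cells and macrophages, stood at 25.3 and 22.7 CPM in CD103+ cells and at 2.28 and 1.36 CPM in CD103- cells. The log2 fold change was 3.75 ± 0.32 (adjusted p = 0.00128). Both populations lay under all others, since CD11b+ dendritic cells held 448 and 464 CPM, ductal macrophages 111 and 145 CPM and stromal macrophages 762 and 611 CPM. Mgl2 also passed the test for being lower in both CD11b- populations than in every other population. Its near relative Clec10a stood at 6.27 and 7.13 against 2.55 and 2.76 CPM (log2 fold change 1.33 ± 0.28, adjusted p = 0.20), reads may be shared between such copies, and the pseudogene Gm12311 overlaps Mgl2.

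Clec4n, the fungal mannan receptor Dectin-2, stood at 20.4 and 9.82 CPM in CD103+ cells and at 0.690 and 1.09 CPM in CD103- cells. Its log2 fold change was 4.04 ± 0.53 (adjusted p = 0.0376). Ms4a6d, a membrane protein of myeloid cells, stood at 14.4 and 20.4 against 4.14 and 2.67 CPM (log2 fold change 2.37 ± 0.31, adjusted p = 0.0376). CD11b+ dendritic cells held 21.0 and 20.5 CPM of Clec4n, close to CD103+ replicate 1, and 24.5 and 28.0 CPM of Ms4a6d. Both belong to families of close paralogs among which reads may be divided. Itgae itself had a log2 fold change of 4.66 ± 0.53 (adjusted p = 0.0287). The span of the gene Haspin lies within that of Itgae. Only gene spans were compared, not exons, and the sources do not state whether counting used strand. Whether the 2 genes share reads is therefore not known.

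The Mmp12 and Mgl2 calls held in all 17 other settings tried, with adjusted p at most 0.0371 and 0.0460. The other calls were lost under some settings. Clec4n lost its call when CD103+ replicate 1 was omitted, or either replicate of CD103- cells, CD11b+ dendritic cells and ductal macrophages (adjusted p up to 0.497), and in a fit of the 4 CD11b- libraries alone (0.115). Ms4a6d lost it without CD103+ replicate 2, CD103- replicate 2 and each replicate of CD11b+ dendritic cells and ductal macrophages (up to 0.663), and in the 4-library fit (0.215). Itgae lost it without CD103+ replicate 2, CD103- replicate 2 and each replicate of CD11b+ dendritic cells (up to 0.173). The count of higher genes ranged from 2 to 18 when a library was left out, and was 18 and 9 on omitting CD103+ replicates 1 and 2, 9 for either stromal and 3 for either ductal macrophage replicate, and 2 for CD103- replicate 2 or either CD11b+ replicate. The count of lower genes was 11 without CD103- replicate 1, 6 and 7 without stromal macrophage replicate 1 and 2, and 0 without any other library.

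**Figure D1:**
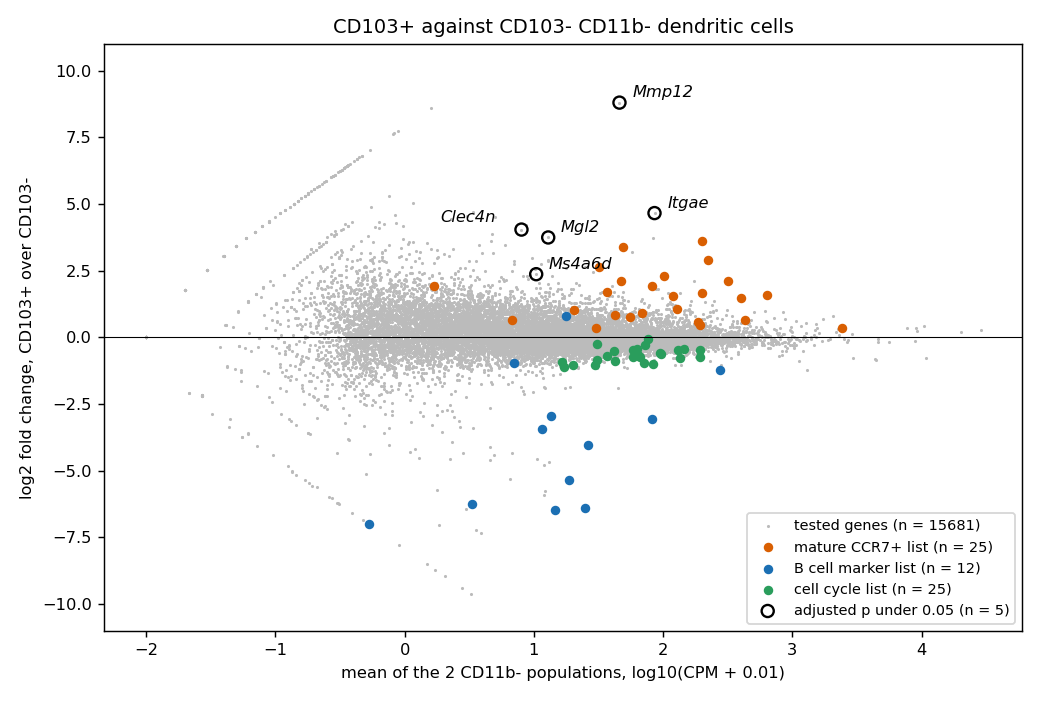
Log2 fold change of CD103+ over CD103- cells (vertical axis) against the mean level of both populations (horizontal axis, log10 of CPM + 0.01) for the 15681 tested genes, 1 point a gene. Circles mark the 5 genes with an adjusted p under 0.05, all above 0, and colours mark 3 gene lists, of which the mature CCR7+ genes lie above 0, the cell cycle genes below 0 and 11 of the 12 B cell markers below 0.

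**Figure D2:**
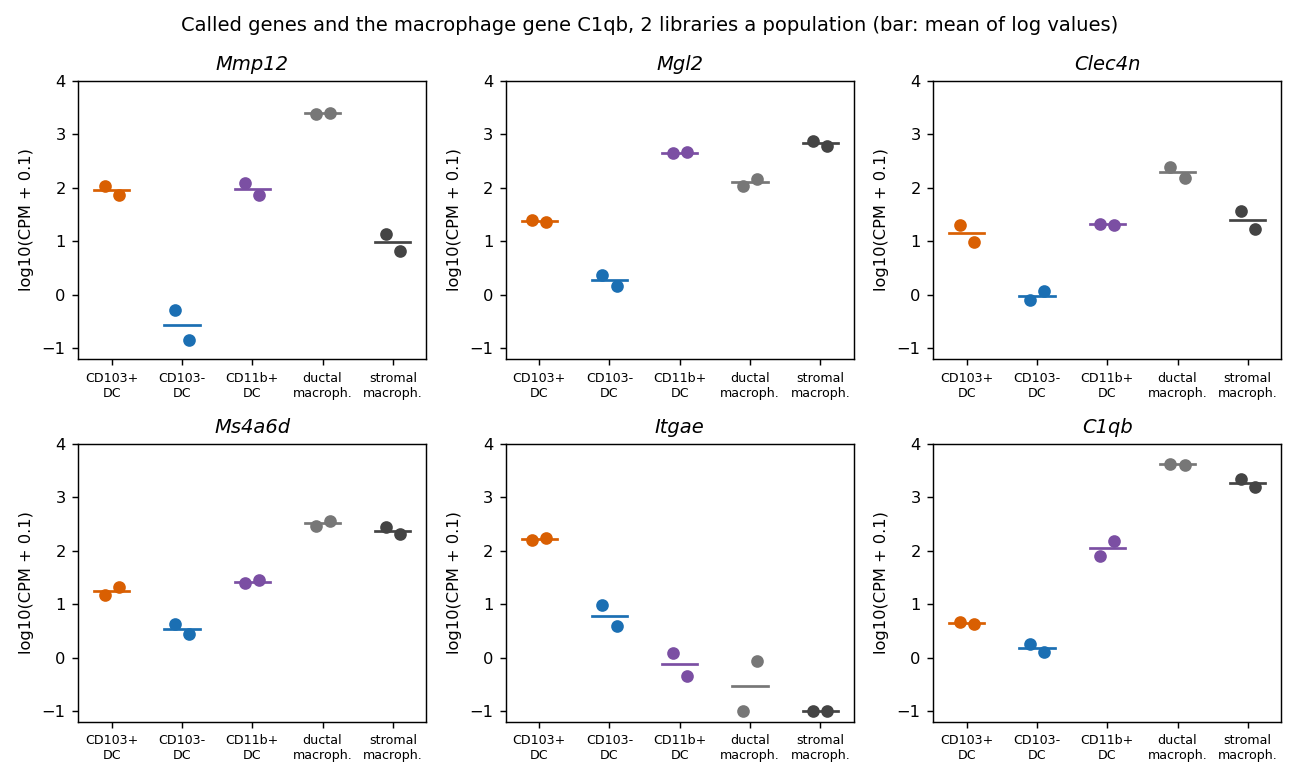
Level of the 5 called genes and of the complement gene C1qb in each library (points, log10 of CPM + 0.1, 2 libraries a population, bar at the mean of the log values). Mmp12 in CD103+ cells is at the level of CD11b+ dendritic cells, Mgl2 in CD103+ cells is under every population but CD103- cells, and C1qb is under 5 CPM in both CD11b- populations.

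Since whole populations were measured, a difference can come from the number of cells of a type or from the RNA per cell, and these cannot be told apart. Macrophage genes were therefore read beside Mmp12. Of the 13 macrophage markers 5 were higher in CD103+ cells at an unadjusted p under 0.05 (4.3% of all genes). None passed the adjusted test in edgeR, while DESeq2 called C1qb. The median log2 fold change of the 13 markers was 0.96, against -0.02 over all tested genes. Their summed level was 1297 and 2017 CPM in CD103+ cells, 1312 and 689 CPM in CD103- cells, 62577 to 65794 CPM in ductal and 17305 to 28139 CPM in stromal macrophages. The complement gene C1qb stood at 4.57 and 4.12 against 1.73 and 1.18 CPM, and Adgre1, which encodes F4/80, at 4.96 and 5.07 against 4.35 and 1.49 CPM. No marker was at 0 in CD103+ cells, and Fcgr1 in replicate 1 and Trem2 in replicate 2 were at 0 in CD103- cells.

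As a share of the ductal macrophage level, C1qa, C1qb and C1qc stood at 0.0899%, 0.105% and 0.0958% in CD103+ cells, Adgre1 at 0.535% and Csf1r at 0.758%. Mmp12 stood at 3.68%, Clec4n at 7.53%, Ms4a6d at 5.34% and Mgl2 at 18.8%. In CD103- cells the same shares were 0.0352% to 0.0566% for the complement genes, 0.00922% for Mmp12, 0.442% for Clec4n, 1.04% for Ms4a6d and 1.42% for Mgl2. Of the 13 markers, Cd14 (19.7%), Cd68 (18.9%), Maf (27.7%) and Mertk (8.95%) had shares above that of Mmp12 in CD103+ cells. Omitting CD103- replicate 2 gave a marker median of 0.25 with 3 of 13 higher at an unadjusted p under 0.05. Omitting CD103+ replicate 1 gave 0.39 with 3 higher, and omitting CD103- replicate 1 gave 1.46 with 9 higher. The part of other cells in the calls was not tested.

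Maturation genes lay higher in CD103+ than in CD103- cells, without passing the adjusted test. Of 25 tested members of the mature CCR7+ list, 18 were higher at an unadjusted p under 0.05 (4.3% of all genes) and none lower. In 23 both CD103+ libraries lay above both CD103- libraries (17.4% of all genes), and the median log2 fold change was 1.56 against -0.02 over all genes. After adjustment edgeR called none in the fit of all 10 libraries with the filter on low counts. Without that filter it called 12 of 26 (106 of 20592 genes higher), and DESeq2 called 12 of 25 (119 of 15681). CD103+ replicate 2 was the highest of the 4 libraries in 24 of the 25. The 26 listed genes summed to 5330 and 10753 CPM in CD103+ and to 4132 and 3927 CPM in CD103- cells. The sums were 4811 and 3674 CPM in CD11b+ dendritic cells, 4755 and 5945 CPM in ductal and 2032 and 1304 CPM in stromal macrophages. CD103+ replicate 1 thus lay under ductal macrophage replicate 2, and CD103+ replicate 2 above all other libraries.

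Ccr7, the receptor that guides mature cells to the node, stood at 668 and 1235 CPM in CD103+ cells and at 319 and 309 CPM in CD103- cells (log2 fold change 1.60 ± 0.35, adjusted p = 0.25). Fscn1, an actin bundler of mature dendrites, stood at 149 and 631 against 71.6 and 34.0 CPM (2.89 ± 0.60, adjusted p = 0.20). Both CD103+ libraries were above both CD103- libraries for each gene, and replicate 2 was well above replicate 1.

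The chemokine Ccl5, which attracts T cells, stood at 122 and 622 against 37.5 and 23.2 CPM, with a log2 fold change of 3.62 ± 0.71 (adjusted p = 0.17). Ccl22 stood at 282 and 748 against 124 and 111 CPM, and Ccl17 at 62.9 and 92.1 against 17.3 and 18.1 CPM. Both are ligands of CCR4 on T cells. Apol7c stood at 37.8 and 139 against 9.87 and 7.10 CPM (3.39 ± 0.58, adjusted p = 0.14).

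Il12b, the p40 chain of interleukin-12, stood at 212 and 394 against 91.6 and 97.9 CPM. Cd40, through which T cells license dendritic cells, stood at 105 and 250 against 59.9 and 60.1 CPM. Socs2, a brake on cytokine signalling, stood at 40.8 and 72.8 against 18.2 and 16.3 CPM. Il15ra, which was not on the list and presents interleukin-15 to lymphocytes, stood at 38.9 and 64.6 against 16.8 and 14.9 CPM (1.71 ± 0.32, adjusted p = 0.14). In each of these genes both CD103+ libraries were higher, and none passed the adjusted test.

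The size of this difference rested on CD103+ replicate 2. Without it, 2 of the 25 members had a negative fold change and the median was 0.83. Without CD103+ replicate 1 the median was 2.06. H2-M2, a non-classical MHC gene that was on no list, had the same shape with 40.5 and 272 against 11.2 and 12.3 CPM (3.73 ± 0.67, adjusted p = 0.14), as did Zmynd15 with 46.2 and 159 against 10.8 and 11.6 CPM (3.19 ± 0.48, adjusted p = 0.093). Both H2-M2 and Zmynd15 were also abundant in ductal macrophages, at 1474 and 1522 CPM and at 425 and 372 CPM.

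B cell genes were the main group on the lower side. Of 12 tested B cell markers, 10 were lower in CD103+ cells at an unadjusted p under 0.05 (2.07% of all genes), the median log2 fold change was -3.74 (-3.29 with the 1 gene at 0 in both CD103+ libraries set to a floor of 3 counts a library), and none passed the adjusted test in the 10-library edgeR fit. DESeq2 called 7 of the 12 (31 of 15681 genes lower), and edgeR without the filter on low counts called 8 of 12 (44 of 20592). All 12 genes of the largest negative fold change at 10 CPM or more were B or plasma cell genes or immunoglobulin chains. Cd79a, a signalling chain of the B cell antigen receptor, stood at 0.873 and 0.911 CPM in CD103+ cells and at 10.7 and 62.6 CPM in CD103- cells, and Ms4a1, which encodes CD20, at 2.46 and 3.52 against 7.53 and 90.8 CPM.

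CD103- replicate 2 was the highest library in 11 of the 12 B cell markers. Summed B cell markers stood at 202 and 236 CPM in CD103+ and at 438 and 1095 CPM in CD103- libraries, and in CD103+ cells 2 of them were at 0 in each library. Without CD103- replicate 2 the median of the 11 tested markers was -1.61, while without CD103- replicate 1 that of the 12 tested was -4.57. Markers of precursor and plasmacytoid dendritic cells, which share some of these genes, summed to 291, 307, 276 and 300 CPM in the 4 libraries. Reads of immunoglobulin genes may be divided among near-identical copies. The chemokine receptors Ccr6 and Cxcr5, which B cells express, stood at 2.94 and 3.33 against 4.49 and 22.9 CPM and at 0.278 and 0.673 against 1.38 and 8.37 CPM.

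Cell cycle genes lay lower in CD103+ cells by a small amount. All 25 tested had a negative log2 fold change (median -0.71). Both CD103+ libraries were below both CD103- libraries in 21 (18.3% of all genes). At an unadjusted p under 0.05, 10 were lower (2.07% of all genes). None passed the adjusted test in the 10-library edgeR fit or in DESeq2. CD103- replicate 2 was the highest library in 18 of the 25, as it was for most B cell markers, and CD103- replicate 1 in 7. Ccna2, cyclin A2, stood at 50.9 and 60.4 against 90.3 and 134 CPM (-1.01 ± 0.26, adjusted p = 0.32). Cdc20, which activates the anaphase complex, stood at 19.0 and 19.9 against 42.9 and 37.0 CPM, and the replication licensing factor Mcm6 at 106 and 139 against 175 and 160 CPM. CD103- replicate 2 was below replicate 1 for Cdc20 and Mcm6 and above it for Mki67, a mark of dividing cells, at 162 and 160 against 167 and 279 CPM. Leaving out CD103- replicate 2 left 5 members with an unadjusted p under 0.05 and leaving out CD103+ replicate 1 left 3, and the median was -0.51 in either case, with 23 and 24 of 25 negative. The B cell sums given above moved with this list, and their part in the result was not tested.

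**Figure D3:**
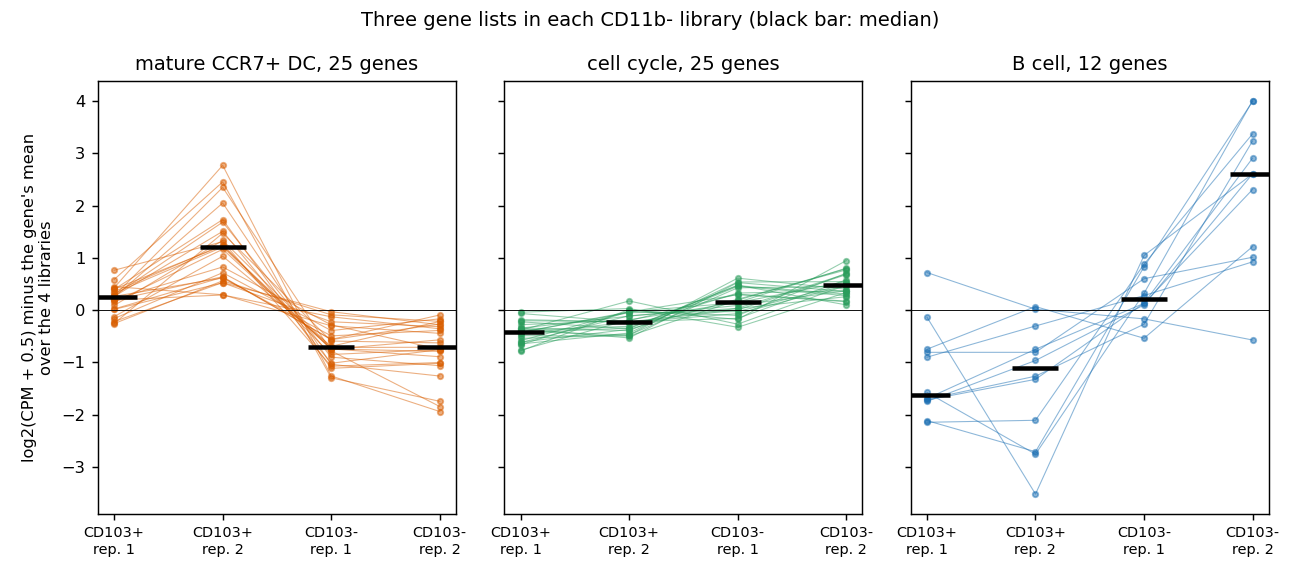
Levels of 3 gene lists in each CD11b- library, as log2(CPM + 0.5) minus the mean of the gene over the 4 libraries, with 1 line a gene and a black bar at the median. The mature CCR7+ genes are highest in CD103+ replicate 2, the B cell markers are highest in CD103- replicate 2, and the cell cycle genes are lower in both CD103+ libraries by a smaller amount.

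Markers of other tissue cells also differed between libraries. Summed levels in the order CD103+ replicates 1 and 2 and CD103- replicates 1 and 2 were 1571, 900, 1058 and 446 CPM for luminal epithelium, 554, 245, 246 and 113 CPM for basal epithelium, and 1124, 702, 839 and 276 CPM for endothelium. CD103- replicate 2 was lowest in each. Fibroblast markers summed to 939, 993, 629 and 391 CPM, and 8 of 10 were higher in both CD103+ libraries. T cell markers summed to 62.3, 124, 84.4 and 109 CPM, most of it Cd8a, which dendritic cells express themselves.

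Genes for the uptake of dead cells gave a median log2 fold change of 0.61 over 19 members, against -0.02 over all tested genes. Of the 19 members, 4 were higher at an unadjusted p under 0.05 (4.3% of all genes) and none was lower. The median was 1.21 with 10 higher on omitting CD103- replicate 1, 0.32 with 2 higher on omitting CD103- replicate 2 and 0.38 with 3 higher on omitting CD103+ replicate 1. Axl, a receptor for phosphatidylserine bridged by GAS6, stood at 74.4 and 67.5 against 37.1 and 16.8 CPM (1.40 ± 0.35, adjusted p = 0.30). Timd4, which binds phosphatidylserine directly, stood at 127 and 202 against 78.1 and 69.6 CPM (1.16 ± 0.29, adjusted p = 0.32). The scavenger receptor Cd36 stood at 979 and 1189 against 727 and 623 CPM. These 3 genes were higher in both CD103+ libraries. The list was lowest in CD103- replicate 2 in 14 of 19 members, as were the epithelial and endothelial sums above, whose part in the result was not tested.

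The partner and the cell biology of CD103 were next compared. Itgb7, the beta chain of CD103, stood at 562 and 920 CPM in CD103+ cells and at 1308 and 806 CPM in CD103- cells, so the libraries overlapped (log2 fold change -0.51, 95% interval -1.22 to 0.20). Itga4, the other partner of Itgb7, stood at 204 and 243 against 154 and 243 CPM (0.17, -0.45 to 0.79). Cdh1, which encodes E-cadherin, stood at 55.3 and 16.1 against 22.2 and 12.4 CPM, with an interval of -0.45 to 2.55. Besides Itgae, 3 of the 23 integrin and adhesion genes were higher at an unadjusted p under 0.05 (4.3% of all genes) and 1 was lower (2.07%). An interval within -1 to 1 held for 7 of the 23 (36.7% of all genes). Icam1 stood at 589 and 591 against 432 and 315 CPM, Vcam1 at 35.3 and 30.4 against 21.3 and 12.2 CPM and Cadm1, an adhesion molecule of cDC1, at 293 and 540 against 207 and 201 CPM.

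TGF-beta is the known inducer of CD103 on T cells. None of its 21 pathway genes tested had an unadjusted p under 0.05 in the main fit. Of these 18 had a positive fold change, with a median of 0.25 against -0.02 over all genes. The median was 0.41 on omitting CD103- replicate 1 and 0.07 on omitting CD103- replicate 2. In 11 of the 21 the 95% interval lay within -1 to 1, a bound met by 36.7% of all genes. It was met by 60.7% of genes at 10 to 100 CPM and 75.3% at 100 CPM or more. The ligand Tgfb1 stood at 79.6 to 117 CPM over the 4 libraries, with overlap between the populations. The receptors Tgfbr1 and Tgfbr2 stood at 33.1 and 43.6 against 21.7 and 29.5 CPM and at 70.2 and 64.5 against 54.7 and 37.0 CPM, with intervals of -0.20 to 1.36 and -0.04 to 1.16. The signal transducers were closer. Smad3 stood at 26.9 and 21.7 against 24.9 and 26.2 CPM (interval -0.86 to 0.71), Smad4 at 106 and 107 against 105 and 108 CPM (-0.56 to 0.55), and Runx3, which acts on Itgae in T cells, at 99.1 and 115 against 92.2 and 106 CPM (-0.45 to 0.67).

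Receptors for growth factors of dendritic cells were compared next. Csf2rb, the common beta chain of the GM-CSF receptor, stood at 987 and 794 against 537 and 542 CPM (0.72 ± 0.30, adjusted p = 0.76). GM-CSF is a known inducer of CD103 on dendritic cells in culture. Flt3, the receptor that drives dendritic cell development, stood at 314 and 520 against 416 and 342 CPM, with an interval of -0.76 to 1.04. Of the 21 genes on this list 4 were higher and 1 lower at an unadjusted p under 0.05 (4.3% and 2.07% of all genes).

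Chemokines lay mostly higher in CD103+ cells (15 of 18 with a positive fold change), while their receptors went both ways. Of 18 chemokines 6 were higher in CD103+ cells at an unadjusted p under 0.05 (4.3% of all genes) and none lower. Among these 6, 3 were the mature genes above. Cxcl16, the ligand of CXCR6, stood at 580 and 760 against 354 and 339 CPM (0.95 ± 0.32, adjusted p = 0.55), and Cxcl2, which draws in neutrophils, at 168 and 157 against 77.3 and 52.1 CPM (1.33 ± 0.30, adjusted p = 0.25). Among 17 chemokine receptors 3 were higher and 4 lower without adjustment (4.3% and 2.07% of all genes). Ccr1 stood at 34.3 and 11.3 against 1.80 and 4.12 CPM (2.91 ± 0.55, adjusted p = 0.14) and was far more abundant in the CD11b+ cells and macrophages, at 118 to 617 CPM. Cx3cr1 stood at 3.73 and 3.13 against 11.4 and 13.6 CPM.

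A large shared programme set both populations apart from the rest. A gene was counted when all 6 pairwise contrasts of CD103+ and of CD103- cells with the other 3 populations had the same sign and the largest of the 6 p-values passed after Benjamini-Hochberg adjustment in edgeR's quasi-likelihood test. By this rule 80 genes (0.51% of those tested) were higher and 125 (0.797%) lower in both CD11b- populations than in every other population. Of the 80 higher genes, none was called between CD103+ and CD103- cells, and 5 had an unadjusted p under 0.05 (6.38% of all genes). In 33 the 95% interval of that difference lay within -1 to 1 (36.7% of all genes, 60.7% of those at 10 to 100 CPM). The rule requires both populations to lie above every other, so likeness between the 2 is partly built in. Leaving out 1 library changed the count of higher genes to between 19 and 113 and that of lower genes to between 49 and 153. Higher genes were fewest when CD11b+ replicate 2 (19) or 1 (22) was omitted, then either ductal macrophage replicate (24), CD103+ replicate 2 (34) and CD103- replicates 2 (38) and 1 (39). For lower genes it came without CD103+ replicates 2 (49) and 1 (61), ductal macrophage replicate 1 (71), CD11b+ replicates 2 (72) and 1 (75) and CD103- replicate 2 (73).

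The receptors that define cDC1 headed the shared list. Xcr1 stood at 223, 378, 225 and 258 CPM in CD103+ replicates 1 and 2 and CD103- replicates 1 and 2, and at 0 to 7.74 CPM in the other 6 libraries. Clec9a, the receptor for actin of dead cells, stood at 196 and 270 against 160 and 194 CPM, and at 0 to 10.8 CPM elsewhere. Their log2 fold changes between CD103+ and CD103- cells were 0.31 (95% interval -0.75 to 1.37) and 0.39 (-0.29 to 1.07). Cd8a, the mark of lymphoid cDC1, stood at 45.2 and 92.4 against 65.0 and 81.0 CPM and at most 1.26 CPM elsewhere, with an interval of -1.01 to 0.84. The T cell genes Cd3e and Cd3g stood at 0.437 to 1.58 CPM and 0.414 to 2.18 CPM in these libraries.

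Of 25 tested genes for cDC1 surface and identity, 10 were higher in both populations than in every other population (0.51% of all genes). Between CD103+ and CD103- cells 12 of the 25 had a positive fold change, and 7 did without CD103+ replicate 2. An interval within -1 to 1 held for only 4 of the 25 (36.7% of all genes), so most were not bounded. Btla, an inhibitory receptor that meets HVEM, stood at 299 and 462 against 284 and 413 CPM, and Gpr141b at 134 and 232 against 182 and 240 CPM. Ly75, the endocytic receptor DEC-205, stood at 62.3 and 112 against 55.6 and 43.0 CPM (0.83 ± 0.33, adjusted p = 0.75). Tlr3, the sensor of double-stranded RNA, stood at 101 and 100 against 99.6 and 137 CPM, and at 1.62 to 20.7 CPM elsewhere. Snx22 ran the other way, with 69.9 and 65.3 against 107 and 94.7 CPM (-0.57 ± 0.22, adjusted p = 0.71). Other cDC1 genes were shared with a further population. Cd207, Cadm1 and Tlr12 were highest in ductal macrophages (502 and 559, 644 and 717, and 335 and 307 CPM), and Cd24a stood at 594 and 541 CPM in CD11b+ cells against 361 to 592 CPM in the CD11b- libraries.

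No transcription factor of the lineage passed the test between CD103+ and CD103- cells. None of the 12 had an unadjusted p under 0.05, and 7 had a 95% interval within -1 to 1. The bound held for 36.7% of all genes, 60.7% of those at 10 to 100 CPM and 75.3% at 100 CPM or more. In 4 of the 12, Irf8 and Zbtb46 among them, both CD103+ libraries were lower (18.3% of all genes). Irf8 stood at 766 and 997 against 1221 and 1113 CPM (interval -1.09 to 0.29) and at 15.3 to 306 CPM elsewhere. Zbtb46, a factor of conventional dendritic cells, stood at 55.9 and 60.9 against 75.8 and 61.3 CPM (-0.92 to 0.46). Both were higher in the 2 populations than in every other population. Zeb2, whose loss favours cDC1, was lower in both, at 9.07 to 17.5 CPM against 70.9 to 369 CPM elsewhere.

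Batf3 and Id2, a pair that cDC1 require, were not particular to these cells. Batf3 stood at 41.3 and 56.4 against 48.9 and 56.2 CPM (interval -0.70 to 0.48), and at 108 and 153 CPM in CD11b+ dendritic cells. Id2 stood at 774 and 1312 against 823 and 903 CPM (-0.53 to 1.08), and at 1163 and 686 CPM in CD11b+ cells. Irf4, which drives type 2 cells, stood at 2.69 to 13.6 CPM in the CD11b- libraries and at 89.2 and 55.5 CPM in CD11b+ cells. Cbfa2t3, a corepressor that sustains Irf8, stood at 160 and 177 against 165 and 141 CPM (-0.33 to 0.60).

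No gene of cross-presentation passed the adjusted test between the populations. Wdfy4, required in cDC1 to present antigens of dead cells, stood at 775 and 966 against 1367 and 733 CPM (interval -0.93 to 0.39), and at 7.56 to 69.5 CPM elsewhere, which placed it on the shared list. Rab43 stood at 442 and 499 against 613 and 497 CPM (-0.74 to 0.26), and the peptide transporter Tap1 at 281 and 406 against 377 and 293 CPM (-0.53 to 0.60). Of 21 genes on this list 12 had an interval within -1 to 1, against 36.7% of all genes. The share was 60.7% of genes at 10 to 100 CPM and 75.3% at 100 CPM or more. At an unadjusted p under 0.05, 1 was higher (4.3% of all genes) and 2 lower (2.07%). The lower ones were Rac2 (130 and 184 against 231 and 252 CPM) and Syk (86.5 and 87.3 against 126 and 128 CPM).

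No MHC class I gene passed the adjusted test. The heavy chain H2-K1 stood at 1673 and 2599 against 1380 and 1243 CPM (0.70 ± 0.29, adjusted p = 0.76), H2-Q7 at 145 and 271 against 116 and 113 CPM (0.86 ± 0.34, adjusted p = 0.74), and B2m, their common light chain, at 1697 and 3543 against 1293 and 1681 CPM (0.82 ± 0.38, adjusted p = 0.78). The immunoproteasome genes Psmb8 and Psmb9 stood at 505 and 927 against 761 and 753 CPM (interval -0.72 to 0.56) and at 237 and 390 against 317 and 346 CPM (-0.66 to 0.50). In 16 of the 18 class I genes CD103+ replicate 2 was the highest of the 4 libraries, as it was for the mature genes. In all, 4 of the 18 were higher at an unadjusted p under 0.05 (4.3% of all genes) and none was lower. Omitting CD103+ replicate 2 left none higher, with 12 of 18 negative and a median of -0.20 against 0.09. Reads of the H2 copies may be divided among them.

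Class II presentation genes were among the most abundant for their length in both populations. Per kilobase of gene length, Cd74, the invariant chain, ranked first with 22119 CPM per kilobase in CD103+ and 18374 in CD103- cells, followed by H2-Ab1 with 17861 and 15707. Cst3, cystatin C, held 11612 and 9161, H2-Aa 9265 and 7832, and H2-Eb1 6070 and 4776. Of the 20 genes with the highest level per length, none had an unadjusted p under 0.05, and log2 fold changes ran from -1.22 to 0.82. None was higher or lower in both populations than in every other, and Cd74 was most abundant in ductal macrophages at 117842 and 113571 CPM. Of 15 class II genes none had an unadjusted p under 0.05, 13 had a positive fold change and 4 did without CD103+ replicate 2. In 5 of the 15 the interval lay within -1 to 1. The transactivator Ciita stood at 149 and 153 against 206 and 203 CPM (-0.44 ± 0.21, interval -0.90 to 0.02).

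Genes lower in both populations than in every other included 6 of the 13 macrophage markers, 4 of the 21 genes of CD11b+ dendritic cells and 4 of the 18 chemokines. The share over all tested genes was 0.797%. Fcgr3, an activating Fc receptor, stood at 7.54 and 10.6 against 4.76 and 3.80 CPM and at 472 to 724 CPM elsewhere. Mrc1, the mannose receptor, stood at 1.46 to 2.46 CPM and at 44.0 to 1190 CPM elsewhere, and C5ar1, the complement C5a receptor, at 0.588 to 2.42 CPM and 31.4 to 774 CPM elsewhere. Of the 125 genes on this side 1, Mgl2, was also called between CD103+ and CD103- cells (0.0319% of all genes). An unadjusted p under 0.05 held for 26 (6.38% of all genes), and an interval within -1 to 1 for 43 (36.7%). Clec4a3, a C-type lectin with close paralogs, was lower in CD103+ cells at 0.318 and 0.475 against 4.07 and 2.17 CPM, without passing the adjusted test (-2.93 ± 0.52, adjusted p = 0.14).

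**Figure D4:**
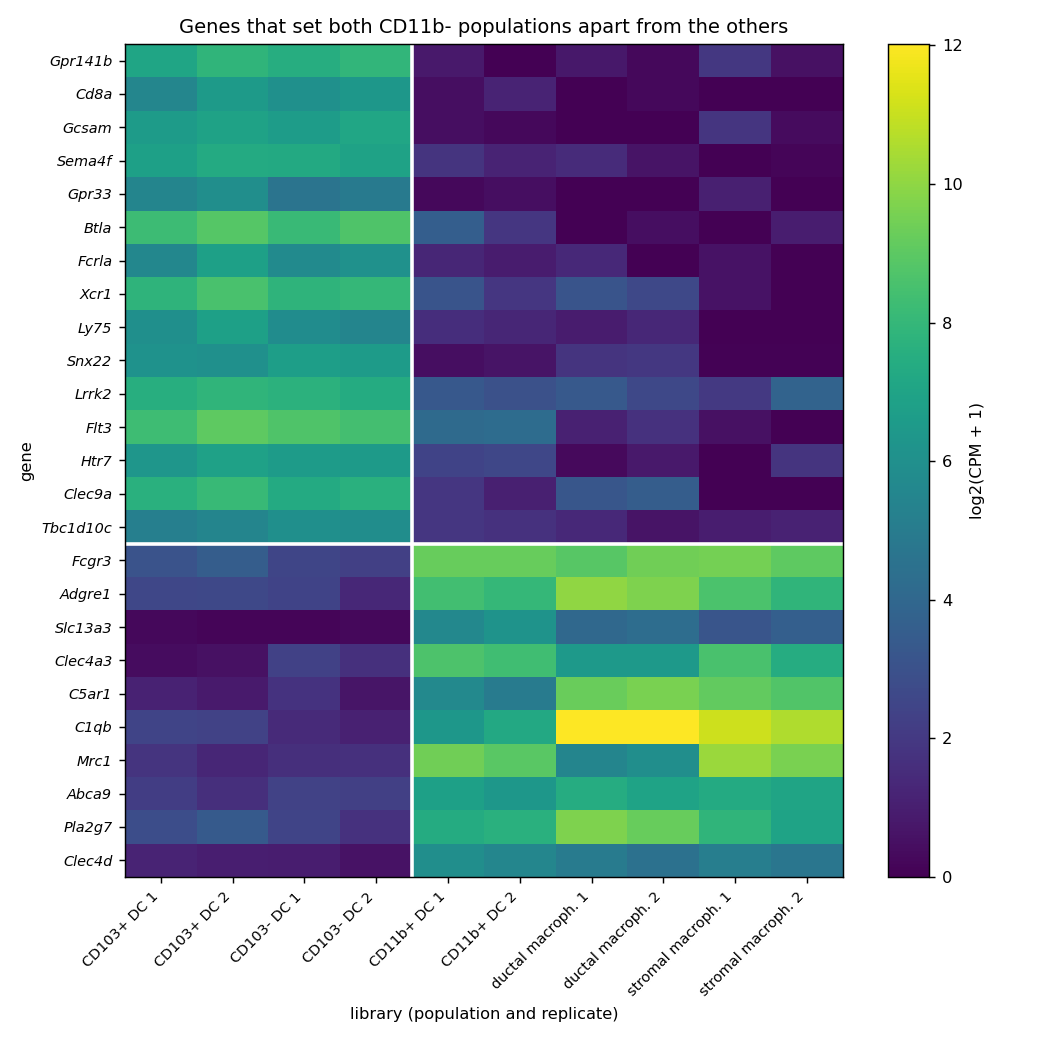
Heat map of log2(CPM + 1) in all 10 libraries for the 15 named genes higher (top) and the 10 named genes lower (bottom) in both CD11b- populations than in every other population. The CD11b- libraries lie left of the vertical white line. Fold changes between CD103+ and CD103- cells are given in the text for some of these genes.

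The depth and the replicate spread set what could be seen. The median half-width of the 95% interval was 1.37 on the log2 scale for genes of 1 to 10 CPM, 0.653 for 10 to 100 CPM and 0.598 for 100 CPM or more. Of the genes at 100 CPM or more, 75.3% had an interval within -1 to 1, so a difference of 2-fold or more lies outside it, and 60.7% of those at 10 to 100 CPM did. Over all levels 5757 genes did, against 3730 and 2868 without CD103+ replicate 1 and 2 and 3302 and 3899 without CD103- replicate 1 and 2. Of the 20 early response genes that dissociation induces, 14 were bounded in this way and none had an unadjusted p under 0.05. Their median was 0.04, 0.34 with 2 genes higher on omitting CD103- replicate 1, and -0.15 on omitting CD103- replicate 2. Mitochondrial genome transcripts had a median log2 fold change of -0.80, were highest in CD103- replicate 2 for all 13 genes, and none was bounded. Without that library their median was 0.14, with 11 of 13 positive.

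**Figure D5:**
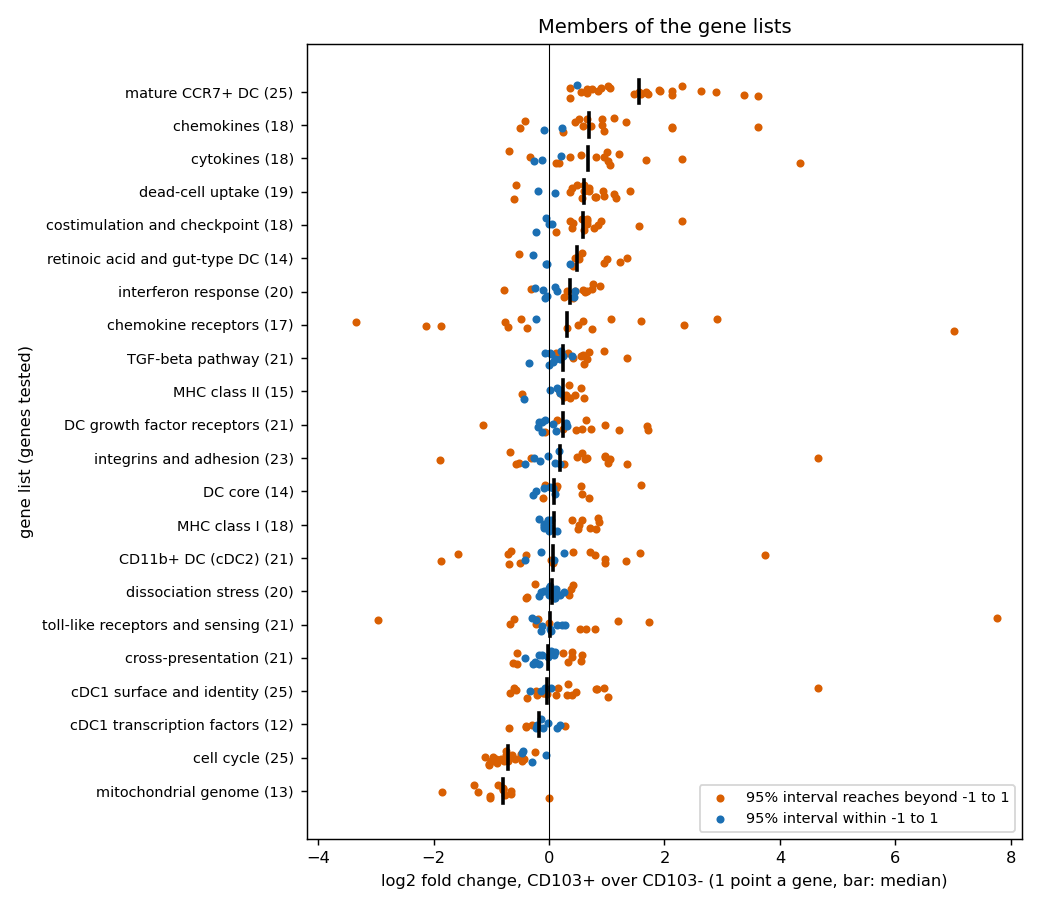
Log2 fold change of CD103+ over CD103- cells for every tested member of the 22 gene lists (1 point a gene, bar at the list's median, lists ordered by it). Blue points have a 95% interval within -1 to 1. The mature CCR7+ list has the highest median (1.56), the mitochondrial genome list the lowest (-0.80), and the transcription factors and surface genes of cDC1 centre near 0, with Itgae at 4.66 as the outlying surface gene.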

How the data were processed

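The deposited values are raw read counts per gene, made by the authors with featureCounts on mm10, per the submitters' processing notes, which give no versions. Aligner, annotation and strand use: not given in the sources used here. Reads were paired-end, of 80 bases. Counts in the separate library tables equalled those of the series table.

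The analysis used edgeR 4.0.16 under R 4.3.3: filterByExpr (minimum count 10, minimum total 15), TMM factors (0.779 to 1.36) and a quasi-likelihood fit of all 10 libraries by population, with 5 residual degrees of freedom and a biological coefficient of variation of 0.333. Benjamini-Hochberg adjustment ran over 15681 genes. Standard errors were derived from the F statistic, and 95% intervals use the t quantile. DESeq2 1.42.0 was an alternative. Names came from RefSeq for 25275 genes and GENCODE for 18, and 1886 had none. In simulated counts (15217 genes) 200 genes were changed in CD103+ cells against all other populations. For CD103+ against CD103-, 54% of 4-fold and 88% of 16-fold changes were recovered, and 8 of 150 calls were false. For both CD11b- populations against every other, 39% and 74% were recovered. With 200 planted changes the adjustment is less strict than with the 5 calls of the real data, so these rates do not give the real sensitivity.

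Genes were named by rule: all called genes, up to 12 per direction of largest unadjusted fold change at 10 CPM or more, 15 higher and 10 lower shared genes at 30 CPM or more, the 20 highest per length, and up to 4 list members each by fold change and level. All members of the cDC1, integrin and TGF-beta lists could be named. Clec10a, Syk, Psmb8, Psmb9, Ciita, Ccr6 and single cell type markers fell outside the rule and were chosen after their values were seen. Lists and members were chosen with earlier results of these data known. P-values of the main fit weigh a difference against a spread between replicate libraries that was estimated over all 5 populations. Shares of counts and of levels are given without an error. Other settings tried were RLE factors, no filter, a replicate term, removal of mitochondrial genes, only the 4 CD11b- libraries and the omission of each library. Some genes that the rule names are not reported here.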

Additional observations from a re-analysis of the deposited data

How the results depend on the processing

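Genes higher and lower in CD103+ cells numbered 106 and 44 with no filter on low counts, 119 and 31 by DESeq2, and 3 and 1 in a fit of the 4 CD11b- libraries alone, against 5 and 0. Genes higher and lower in both CD11b- populations numbered 163 and 197 with no filter and 197 and 242 by DESeq2, against 80 and 125. Leaving out 1 library gave 2 to 18 higher and 0 to 11 lower genes in CD103+ cells, 19 to 113 and 49 to 153 for the shared sets, and 2868 to 6516 genes with an interval within -1 to 1, against 5757 (these last were tried after seeing the data, as were the gene lists under each setting). With RLE factors or without mitochondrial genes the counts stayed within 1.5 times. The cause of these shifts was not tested.

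Of the 109 genes named in the text, 32 had a fold change of the other sign under 1 or more of the 17 alternatives, which for 31 of them happened only on leaving out a library, and none of the 5 called genes was among them. These fold changes were tried after seeing the data. The lowest and highest log2 fold changes when 1 library was left out were -0.35 to 0.10 for Batf3, -0.22 to 0.42 for Btla, -1.22 to 0.80 for C5ar1, -0.10 to 1.55 for Cd207, -0.52 to 0.15 for Cd24a and -0.79 to 1.04 for Cd3e. They ran from -0.49 to 0.31 for Cd68, -0.24 to 0.64 for Cd74, -0.69 to 0.34 for Cd8a, -0.099 to 1.68 for Cdh1, -0.14 to 0.71 for Cst3 and -0.27 to 0.46 for Flt3. The range was -0.66 to 0.14 for Gpr141b, -0.18 to 0.57 for H2-Aa, -0.30 to 0.55 for H2-Ab1, -0.16 to 0.60 for Id2, -1.42 to 0.91 for Irf4 and -0.12 to 0.54 for Itga4. Leaving out 1 library gave -0.039 to 1.65 for Mertk, -0.53 to 0.21 for Mrc1, -0.58 to 0.29 for Psmb8, -0.48 to 0.23 for Psmb9, -1.4e-05 to 0.22 for Runx3 and -0.24 to 0.075 for Smad3. Values ran from -0.025 to 0.018 for Smad4, -0.25 to 0.28 for Tap1, -0.16 to 0.27 for Tlr12, -0.45 to 0.018 for Tlr3, -0.13 to 5.56 for Trem2 and -0.65 to 0.25 for Wdfy4. The last ranges were -0.12 to 0.64 for Xcr1 and -0.64 to 0.12 for Zeb2. Smad4 also changed sign with RLE factors (0.018), no filter (0.0038), no mitochondrial genes (0.0078) and DESeq2 (0.018).

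The replicate numbers were not taken to pair the libraries, since the labels do not say what they share. Deviations of same-numbered libraries correlated at 0.18 between CD103+ and CD103- cells, at -0.18 to -0.12 between these and other populations and at 0.10 to 0.13 among the others. With a replicate block over 10 libraries, 3 genes were higher and 0 lower in CD103+ cells, and Itgae (adjusted p = 0.058) and Ms4a6d (0.124) were not called by edgeR. With the block in the 4 CD11b- libraries alone, with 1 residual degree of freedom, 492 of 14845 genes were higher and 113 lower. All 5 genes called above were among them. Called higher were 17 of 25 mature CCR7+ and 1 of 20 interferon response genes. So were 6 of 9 basal and 3 of 11 luminal epithelium, 5 of 10 endothelium and 4 of 10 fibroblast markers. Called lower were 10 of 12 B cell and 6 of 25 cell cycle genes. Further lists also held called genes. With 2 libraries a population, genes under 10 CPM were bounded poorly, and an adjusted p over the threshold does not show equal levels.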

Other observations

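Further lists were compared between CD103+ and CD103- cells. Of 20 interferon response genes 3 were higher and 1 lower at an unadjusted p under 0.05 (4.3% and 2.07% of all genes). None of the 20 was called in the 10-library edgeR fit or in DESeq2. Ifit1, an inhibitor of viral RNA translation, stood at 127 and 79.3 against 75.0 and 37.4 CPM, and Ifi27l2a at 53.2 and 43.1 against 65.5 and 99.9 CPM. The transcription factor Stat2 had a 95% interval of -0.39 to 0.68.

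Among 21 sensing genes, Clec7a, the beta-glucan receptor Dectin-1, stood at 58.6 and 59.4 against 14.5 and 21.1 CPM (log2 fold change 1.73 ± 0.48, adjusted p = 0.40), and at 89.8 to 2031 CPM in the other populations. Tlr11 and Tlr12, which sense profilin of parasites, stood at 28.1 and 42.6 against 62.5 and 50.8 CPM and at 22.3 and 22.1 against 24.8 and 18.4 CPM. Il1rn, the interleukin-1 receptor antagonist, stood at 22.5 and 7.01 against 2.14 and 3.75 CPM (2.30 ± 0.50, adjusted p = 0.22), and Il1b at 365 and 288 against 137 and 190 CPM. In ductal macrophages they held 427 and 462 CPM and 1399 and 2135 CPM, and Il1rn was highest in CD11b+ cells. Of the retinoic acid genes, Aldh1a2, which makes retinoic acid, stood at 19.7 and 49.3 against 20.2 and 14.2 CPM, and at 516 and 479 CPM in CD11b+ dendritic cells.

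Type 2 genes other than Mgl2 gave mixed values. Cd209a stood at 33.5 and 22.3 against 8.77 and 9.81 CPM (1.58 ± 0.40, adjusted p = 0.30), and at 1198 and 763 CPM in CD11b+ cells. Ccr2, a receptor of monocyte-derived and type 2 cells, stood at 186 and 278 against 305 and 450 CPM.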
